A study of Homo sapiens with 6 samples.

Results

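The genes described here encode respiratory chain subunits that are exchanged, or regulators that act, when oxygen falls. They were taken from a named list of 9 genes: COX4I1, COX4I2, NDUFA4, NDUFA4L2, LONP1, HIGD1A, HIGD2A, ISCU and CHCHD2. Of these, 8 were found by symbol among the 22153 genes of the table, and 7 of the 8 passed the filter on low values that left 10237 genes for testing. COX4I2 was not analysed here, and NDUFA4L2 fell below the filter. The samples were EA.hy926 cells, an endothelial hybrid line a fusion of human umbilical vein endothelium with A549 lung carcinoma cells. Polyadenylated RNA was sequenced from 3 libraries of cells at normoxia (20% O2) and from 3 libraries of cells held at hypoxia (1% O2) for 8 h, all grown in high-glucose medium with serum. It is 1 line, and no label ties the replicates to separate cultures. The p-values therefore cover library-to-library spread alone, which may be technical. The comparison of hypoxia with normoxia asks which transcripts change within 8 h.

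Cytochrome c oxidase, complex IV, passes electrons from cytochrome c to oxygen, and complex I feeds electrons into the chain from NADH. In several cell types low oxygen is known to change the make-up of these complexes through the hypoxia-inducible factors (HIF). COX4-2 (COX4I2) is made in place of COX4-1 (COX4I1), and the mitochondrial protease LON (LONP1) degrades COX4-1. NDUFA4L2 is a HIF-induced paralog of NDUFA4, a small subunit first assigned to complex I and later found in complex IV. HIGD1A and HIGD2A carry a hypoxia-inducible domain and act on complex IV and its assembly. ISCU is the scaffold on which iron-sulfur clusters are built and a known target of the hypoxia-induced microRNA miR-210. CHCHD2 binds complex IV and, in the nucleus, acts on the COX4I2 promoter.

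The letters of the miR-210 seed match and of the HIF core motif are shown first, since both are background links between some of these genes and low oxygen. The mature miR-210-3p (RefSeq, GRCh38.p14, minus strand of chr11:568112-568133) is given with its seed, bases 2 to 8, in capitals. Below it stand the 3′ UTR stretches with a perfect match to that seed (ACGCACA, capitals, written as DNA) in the principal transcript of ISCU and of COX10 and SCO1, complex IV assembly genes. They lie at chr12:108569012-108569039 on the plus strand, chr17:14207547-14207574 on the plus strand and chr17:10679496-10679523 on the minus strand (GENCODE 29, GRCh38).
miR-210-3p: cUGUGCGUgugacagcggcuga
ISCU: gaagagctatgagatACGCACAatactt
COX10: ttaccaccacaccacACGCACActccac
SCO1: atgatatgtttctacACGCACAtgatag

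The ISCU match begins at base 111 of a 3′ UTR of 468 bases. ISCU was the only one of 7 tested members with this match in the 3′ UTR of its principal transcript. Among 9159 tested coding genes with such a UTR, 2.63% held the match. A match is a description of letters and not a measured binding site, and miR-210 itself was not measured in these libraries.

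The core of the HIF binding element, ACGTG or GCGTG on either strand, was searched in promoter windows of 300 bases, 250 before and 50 after the start, from RefSeq (GRCh38.p14). Windows were at hand for 6 of the 9 members. One or more matches were present in 48.4% of all 35116 windows, so a match is common. COX4I1 had 0 matches in its window. In its main window LONP1 had matches at 5 places, HIGD1A, HIGD2A and ISCU each at 2, and CHCHD2 at 1. The LONP1 stretches below hold CACGTG, in which ACGTG is read on both strands. They are shown, with matches in capitals, for the protease and for both hypoxia-inducible domain genes. Their positions are chr19:5720341-5720371 and chr19:5720178-5720208 (minus strand), chr3:42804653-42804682 (minus strand) and chr5:176388605-176388634 (plus strand).
LONP1, 212 bases before the start: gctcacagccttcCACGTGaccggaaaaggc
LONP1, 49 bases before the start: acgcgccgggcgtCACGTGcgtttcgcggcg
HIGD1A, 179 bases before the start: ggcgccgagctctCACGTctgtctccgcca
HIGD2A, 133 bases before the start: ctccttccggaagGCGTGcacaaggctttg

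The libraries held 17226736 to 18652704 reads assigned to genes. Hypoxia genes outside the list separated the groups. BNIP3, a mitophagy receptor and HIF target, stood at 520, 573 and 694 size-factor-scaled reads in normoxia and at 6951, 5879 and 7254 in hypoxia. It rose by log2 3.47 (95% interval 2.99 to 3.96, limma adjusted p = 0.00207). MIR210HG, the host transcript of miR-210, stood at 7.41, 28.4 and 7.52 and at 192, 277 and 279. It rose by log2 3.93 (limma adjusted p = 0.0284). MIR210HG lost the call in 7 of 17 alternatives, among them leaving out normoxia replicate 1 (adjusted p = 0.0827) or hypoxia replicate 1, 2 or 3 (0.122, 0.293 and 0.275), and edgeR (0.0823). VEGFA, the angiogenic factor, had a log2 value 1.39 higher in hypoxia that did not pass limma (adjusted p = 0.863) and passed DESeq2 (0.0146). Endothelial markers were present, with 11 of 12 past the filter and a summed FPKM of 628 to 1300 in normoxia and 692 to 1746 in hypoxia. Of 6 epithelial markers 3 passed (KRT8, KRT18 and MUC1), with sums of 353 to 491 and 315 to 462. Fibroblast and leukocyte markers summed to 0.507 to 6.68 in all libraries.

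No member passed the test for a change after 8 h of hypoxia. Of the 7 tested members 0 were called by limma in either direction, where 0.0977% of all genes tested were called higher and 0% lower. At an unadjusted p under 0.05 the count was also 0. DESeq2 and edgeR, run on the recovered reads of all 8 members, called 0 and had 0 at an unadjusted p under 0.05. Over all genes DESeq2 called 0.26% higher and 0.03% lower, and edgeR 0.0674% higher and 0% lower. The log2 difference was positive in 4 members and negative in 3, with a median of 0.26 beside 0.00 over all genes tested, of which 50.6% were positive. Groups that did not overlap were seen for 1 of the 7, HIGD2A, higher in hypoxia, beside 4.77% of all genes tested that were higher without overlap and 2.72% that were lower. Every adjusted p of a member was 1.00 by limma, and over the alternatives the lowest was 0.829.

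**Figure D1:**
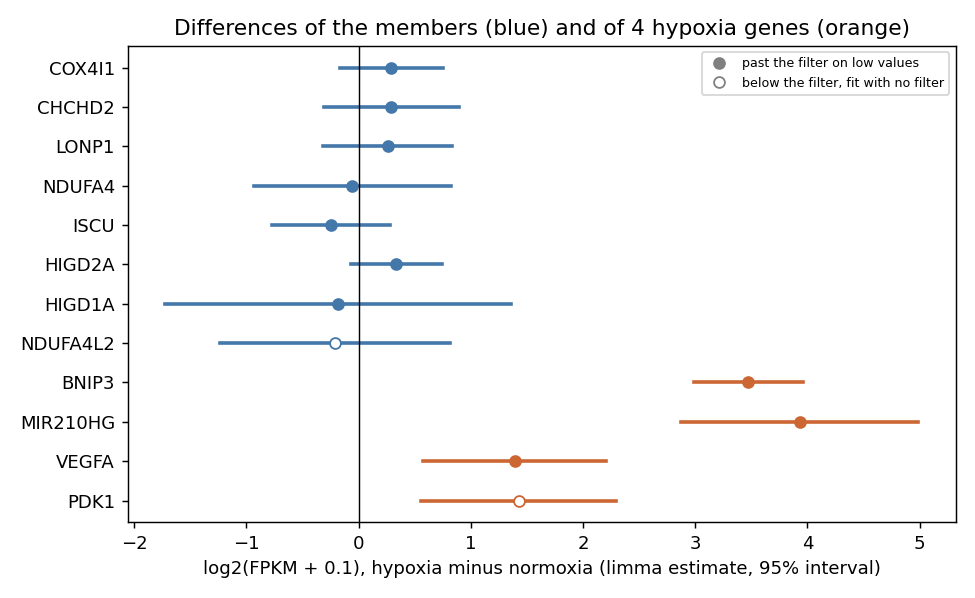
Log2 difference between hypoxia and normoxia (horizontal axis, limma estimate on log2(FPKM + 0.1)) with its 95% interval, for the 8 members (blue) and 4 hypoxia genes (orange); open points are genes below the filter, from the fit with no filter. All 8 member intervals include 0, while those of BNIP3 (2.99 to 3.96) and MIR210HG (2.88 to 4.98) do not.

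COX4I1 encodes COX4-1, the form of subunit 4 used at normal oxygen (ENSG00000131143, chr16:85798633-85807044, plus strand, GENCODE 29). It stood at 9528, 9673 and 10638 scaled reads in normoxia and at 12867, 10172 and 13782 in hypoxia. Hypoxia replicates 1 and 3 lay above every normoxia library, and hypoxia replicate 2 lay among them. On the log2 scale hypoxia minus normoxia was 0.29 (95% interval -0.16 to 0.75, limma adjusted p = 1.00). On this scale the interval leaves room for a rise of up to 1.68-fold and a fall of up to 1.12-fold.

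LONP1 encodes the ATP-dependent LON protease of the matrix (ENSG00000196365, chr19:5691834-5720572, minus strand). Its values were 5926, 4261 and 5733 scaled reads at normoxia against 6918, 7540 and 4776 at hypoxia. The groups overlapped through hypoxia replicate 3, which was below normoxia replicates 1 and 3. The log2 difference of 0.26 had a 95% interval of -0.31 to 0.84 (limma adjusted p = 1.00), so a rise beyond 1.78-fold lies outside it. The size of this difference rested on single libraries, which was 0.11 when normoxia replicate 2 was left out, 0.13 when hypoxia replicate 2 was, and 0.46 when hypoxia replicate 3 was. LONP1 shares 43 bp of exon, 0.846% of its exon length, with RPL36 on the opposite strand. RPL36 had 13003 to 21278 reads per library, and its part in the LONP1 reads was not tested. The 3 protein-coding genes most like LONP1 across the 6 libraries, by Pearson correlation of log2 values among 5290 genes, were ERCC1 (r = 0.989), GORASP2 (0.986) and NFKB2 (0.981). They were picked as the highest values, with no test, and do not show a link to LONP1.

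NDUFA4 encodes the major form of its subunit (ENSG00000189043, chr7:10931951-10940256, minus strand). Its scaled reads were 2424, 2512 and 4760 at normoxia against 4016, 1821 and 3542 at hypoxia. The highest library was a normoxia one and the lowest a hypoxia one, with the rest mixed. The log2 difference was -0.05 (95% interval -0.93 to 0.82, limma adjusted p = 1.00), and its sign turned without normoxia replicate 3 (0.26) and without hypoxia replicate 2 (0.30).

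NDUFA4L2, the paralog known as a HIF-1 target, was weakly expressed (ENSG00000185633, chr12:57234903-57240715, minus strand). It had 39, 35 and 60 reads in normoxia and 56, 40 and 20 in hypoxia, so the lowest count was in a hypoxia library and the groups overlapped throughout. In the limma fit with no filter its log2 difference was -0.21 (95% interval -1.23 to 0.81, adjusted p = 1.00). DESeq2 put it at -0.15 with a 95% interval from -1.20 to 0.91, which leaves room for a rise of up to 1.88-fold. For comparison, the lower DESeq2 limit of the BNIP3 rise in the same libraries was 7.59-fold. The exons of NDUFA4L2 share 33 bp with SHMT2 on the opposite strand, and SHMT2 had 10157 to 19956 reads per library. No source used here gives the strand setting. SHMT2 reads counted toward NDUFA4L2 therefore cannot be told apart from its own, and their part was not tested.

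The share of NDUFA4L2 in the reads of the NDUFA4 pair did not separate the groups. The normoxia libraries gave 1.68%, 1.30% and 1.17%, the hypoxia libraries 1.43%, 2.23% and 0.534%. Exact 95% binomial intervals, which cover counting error only, ran from 1.19% to 2.28%, 0.909% to 1.81% and 0.895% to 1.51% in normoxia. In hypoxia they were 1.08% to 1.85%, 1.60% to 3.02% and 0.326% to 0.823%. The highest and the lowest share were both in hypoxia. The mean within-library log2 ratio of NDUFA4L2 to NDUFA4 was -6.14 ± 0.27 at normoxia against -6.33 ± 1.05 at hypoxia (SD, n = 3 each; exact two-sided permutation p = 0.90). The smallest p that 3 libraries against 3 allow is 0.10. The difference of -0.19 turned to 0.39 when hypoxia replicate 3 was left out, and was -0.04 when normoxia replicate 1 was and -0.64 when hypoxia replicate 2 was.

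**Figure D2:**
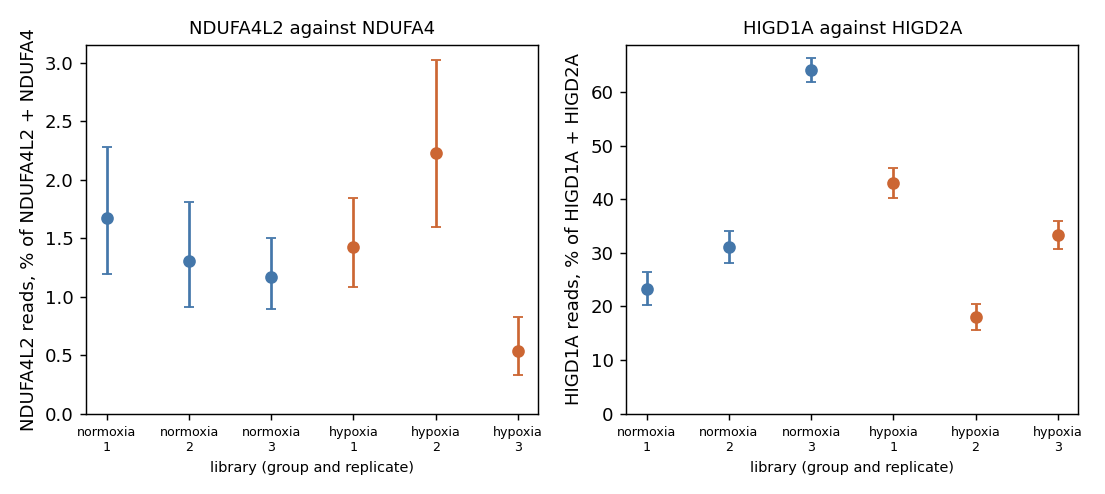
Share of reads (vertical axes, percent, starting at 0) of NDUFA4L2 in NDUFA4L2 plus NDUFA4 (left) and of HIGD1A in HIGD1A plus HIGD2A (right) in each library, with exact 95% binomial intervals for counting error; normoxia is blue and hypoxia orange. The NDUFA4L2 share runs from 0.534% to 2.23%, both in hypoxia, and the HIGD1A share from 18.0% in hypoxia replicate 2 to 64.1% in normoxia replicate 3.

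HIGD2A was the member whose groups stood apart. It encodes an inner membrane protein that acts in complex IV and supercomplex assembly (ENSG00000146066, chr5:176388747-176389771, plus strand). Its scaled reads were 633, 633 and 617 in normoxia and 744, 833 and 805 in hypoxia. All 3 hypoxia libraries were above all 3 normoxia libraries, and the normoxia libraries differed by 1.03-fold at most. The means were 628 ± 9.28 and 794 ± 45.6 (SD, n = 3 each), a ratio of 1.26. The log2 difference of 0.34 (95% interval -0.07 to 0.74, unadjusted p = 0.0926, limma adjusted p = 1.00) did not pass the test, and it was 0.30 to 0.38 in the 18 alternatives. Of all genes tested, 20.9% had a larger absolute log2 difference. The exons of HIGD2A share 227 bp, 34.0% of their length, with NOP16 on the opposite strand. NOP16 stood at 329, 231 and 183 scaled reads in normoxia and 353, 213 and 209 in hypoxia, with groups that overlapped, and its part in the HIGD2A reads was not tested.

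HIGD1A, the family member known to be induced by low oxygen, was the most variable (ENSG00000181061, chr3:42784298-42804531, minus strand). It stood at 192, 285 and 1101 scaled reads in normoxia and at 561, 183 and 402 in hypoxia. Normoxia replicate 3 was the highest library and hypoxia replicate 2 the lowest. Within normoxia the libraries differed by 5.74-fold and within hypoxia by 3.07-fold, while the ratio of the hypoxia to the normoxia mean was 0.726. The log2 difference was -0.18 (95% interval -1.72 to 1.36, limma adjusted p = 1.00). It became 0.56 when normoxia replicate 3 was left out, 0.27 when hypoxia replicate 2 was, and -0.69 when normoxia replicate 1 was. HIGD1A took 23.2%, 31.1% and 64.1% of the reads of the HIGD1A and HIGD2A pair in normoxia and 43.0%, 18.0% and 33.3% in hypoxia. The log2 ratio of the pair was -0.68 ± 1.34 in normoxia and -1.20 ± 0.91 in hypoxia (SD, n = 3 each; exact two-sided permutation p = 0.70, and 0.90 for both after adjustment over the 2 pairs compared). That difference, -0.52, was 0.24 without normoxia replicate 3. Reads of 2 processed pseudogenes came to at most 0.664% of the HIGD1A reads in any library.

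HIGD1A and NDUFA4 moved together across libraries and with genes low in GC content, which were 39.7% and 40.0% GC. The tenth of tested genes lowest in GC, at or below 40.3%, had a median deviation from the six-library mean of -0.67, -0.25 and 0.90 on the log2 scale in normoxia and 0.25, -0.39 and 0.19 in hypoxia. HIGD1A deviated by -0.93, -0.37 and 1.57 in normoxia and 0.60, -1.0 and 0.13 in hypoxia. NDUFA4 deviated by -0.31, -0.26 and 0.66 and by 0.41, -0.73 and 0.23. The sign was the same as that of the low-GC genes in every library for both genes. After a correction for GC content the standard error fell from 0.67 to 0.36 for HIGD1A and from 0.38 to 0.22 for NDUFA4, and the log2 differences were -0.19 (95% interval -1.01 to 0.63) and -0.07 (-0.57 to 0.43). The standard error rose from 0.20 to 0.25 for COX4I1, from 0.26 to 0.32 for CHCHD2 and from 0.18 to 0.19 for HIGD2A. For LONP1 it went from 0.25 to 0.24 and for ISCU from 0.23 to 0.20.

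**Figure D3:**
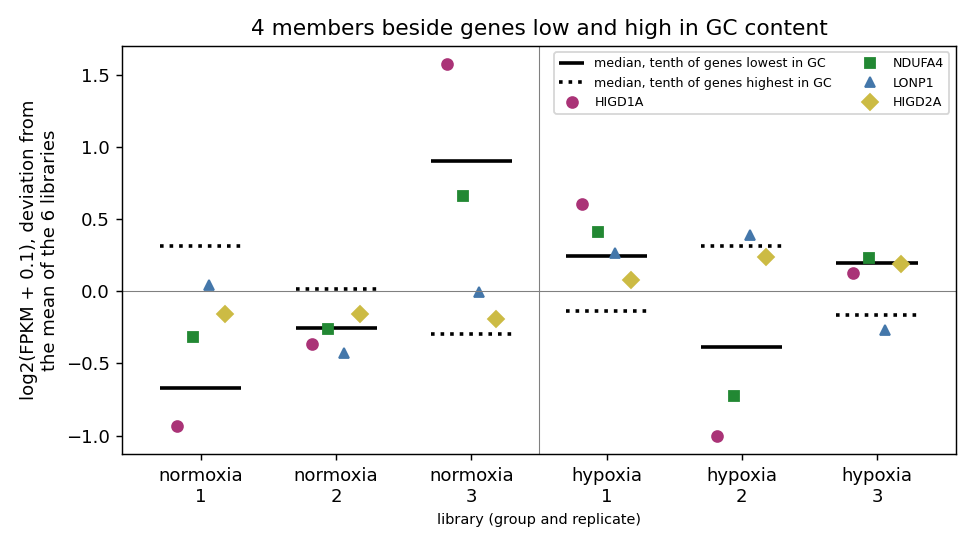
Deviation of log2(FPKM + 0.1) from the mean of the 6 libraries (vertical axis) in each library, for 4 members (coloured points) and for the median of the tenth of tested genes lowest (solid bar) and highest (dotted bar) in GC content. HIGD1A reaches 1.57 and NDUFA4 0.66 in normoxia replicate 3, where the low-GC median is 0.90, while HIGD2A stays between -0.19 and 0.24.

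ISCU, the iron-sulfur scaffold with the miR-210 seed match printed above, had the lowest limma log2 difference among the tested members (ENSG00000136003, chr12:108562582-108569384, plus strand). The rank changed with the tool and with single libraries. HIGD1A was lower by DESeq2 (-0.46 against -0.25 for ISCU) and by edgeR (-0.51 against -0.28). In limma HIGD1A was lower without normoxia replicate 1 (-0.69 against -0.35) or normoxia replicate 2 (-0.41 against -0.26). The same held without hypoxia replicate 1 (-0.53 against -0.33). ISCU stood at 1298, 1475 and 1760 scaled reads in normoxia and at 1411, 1049 and 1358 in hypoxia. Hypoxia replicate 2 was below every normoxia library, and hypoxia replicates 1 and 3 lay between normoxia replicates 1 and 2. The log2 difference was -0.25 (95% interval -0.77 to 0.28, limma adjusted p = 1.00), which leaves room for a fall of up to 1.71-fold. It stayed negative in all 18 alternatives, from -0.35 to -0.11, with -0.11 without hypoxia replicate 2 and -0.13 without normoxia replicate 3. COX10 and SCO1, which hold the same match, had log2 differences of 0.05 (95% interval -0.49 to 0.60) and -0.03 (-0.66 to 0.60). The 241 tested genes with the match had a median log2 difference of -0.03, with 53.9% negative and 0 called by limma, beside -0.00 and 50.4% for all 9159. RNA levels do not show effects on translation.

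CHCHD2 encodes a twin CX9C protein found in mitochondria and the nucleus (ENSG00000106153, chr7:56101569-56106576, minus strand). It stood at 7756, 7636 and 7611 scaled reads in normoxia and at 13158, 6726 and 9348 in hypoxia. The normoxia libraries differed by 1.02-fold, while the hypoxia libraries differed by 2.0-fold and lay on both sides of them. The log2 difference of 0.29 had a 95% interval of -0.31 to 0.90 (limma adjusted p = 1.00). Hypoxia replicate 1 carried most of it, since it was 0.05 without that library. It was 0.53 without hypoxia replicate 2. Reads of 3 processed pseudogenes came to at most 0.110% of the CHCHD2 reads. In bulk RNA, fewer cells with a transcript and less of it per cell cannot be told apart, here and for the other members.

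Per length, COX4I1 and CHCHD2 were the most abundant members and NDUFA4L2 the least. FPKM here is size-factor-scaled reads divided by length and by the mean library total. On the principal transcript length, in FPKM, the means over 6 libraries were 712 for COX4I1, 541 for CHCHD2, 101 for LONP1 and 83.6 for NDUFA4. They were 78.4 for ISCU, 59.6 for HIGD2A, 18.5 for HIGD1A and 2.0 for NDUFA4L2. COX4I1 was above CHCHD2 in 6 of 6 libraries. Their order depended on the length used: the summed length of all annotated exons is 4792 bp for COX4I1, against 873 bp for its principal transcript, and on that length CHCHD2 (431 FPKM) was above COX4I1 (130 FPKM) in 6 of 6. On the principal transcript length LONP1 was above NDUFA4 in 4 of 6 libraries and NDUFA4 above ISCU in 3 of 6. On that length these neighbours did not differ beyond their spread. The place of ISCU also depended on the length used. On the summed exon length NDUFA4 (50.1 FPKM) was above ISCU (17.6 FPKM) in 6 of 6 libraries. The mean of HIGD2A, 59.6 FPKM on both lengths, was then above that of ISCU and not below it. HIGD2A was above HIGD1A, and HIGD1A above NDUFA4L2, in 6 of 6 on the principal transcript length.

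**Figure D4:**
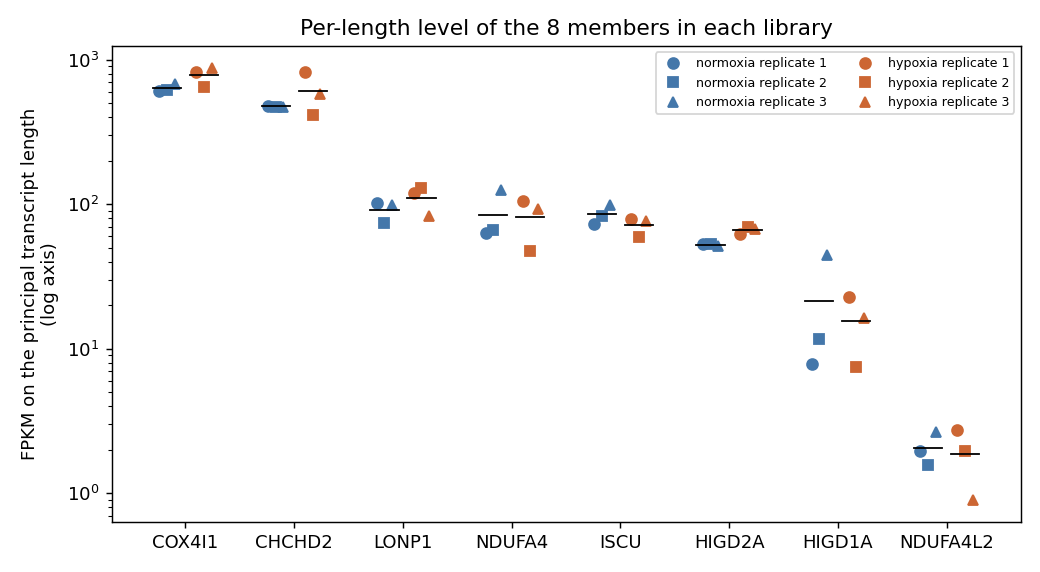
Level of each of the 8 members in each library, in FPKM on the principal transcript length (vertical log axis); points are libraries, shaped by replicate and coloured by group, and black bars are group means. COX4I1 and CHCHD2 lie highest (418 to 884 FPKM), NDUFA4L2 lowest (0.897 to 2.74 FPKM), and HIGD2A alone shows groups that do not overlap.

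The rest of complex IV likewise held no gene past the test. Of 14 further nuclear subunit genes 9 were tested, 6 with a positive and 3 with a negative log2 difference (median 0.10), and 0 were called by limma, DESeq2 or edgeR or had an unadjusted limma p under 0.05. COX6A1 and COX5B, nuclear subunits of the enzyme, had the largest differences, 0.53 (95% interval -0.20 to 1.26) and 0.37 (-0.20 to 0.94), with overlapping groups. COX6A1 was at 0.22 without normoxia replicate 3 and COX5B at 0.18 without hypoxia replicate 1. COX6B2 and COX7A1, tissue-restricted isoforms, had 0 to 3 and 0 to 1 reads per library. The mitochondrially encoded catalytic subunits MT-CO1, MT-CO2 and MT-CO3 were all negative (median -0.40). All mitochondrially encoded mRNA made up 4.83%, 3.44% and 3.11% of reads in normoxia and 3.84%, 2.56% and 1.69% in hypoxia. Whether these subunits moved apart from that share was not tested. MT-CO2 stood at 140799, 108231 and 163455 scaled reads in normoxia and 168820, 77303 and 56215 in hypoxia, with groups that overlapped through hypoxia replicate 1. Its log2 difference of -0.59 (95% interval -1.51 to 0.33) was -1.04 without that library and -0.25 without hypoxia replicate 3. Among 22 tested assembly and supercomplex factors 12 were positive and 10 negative (median 0.03), again with 0 called by the 3 tools. COA7, an assembly factor, stood at 346, 369 and 408 in normoxia and 309, 246 and 294 in hypoxia, lower in every hypoxia library, with a log2 difference of -0.40 (95% interval -0.94 to 0.14). It was the only 1 of the 22 without overlap, where 2.72% of all genes tested were lower without overlap. PET117, another assembly factor, had -0.38, which was -0.025 without hypoxia replicate 2 and -0.67 without normoxia replicate 3. PET100, below the filter and named after its values were seen, had 18, 24 and 30 reads in normoxia and 37, 41 and 44 in hypoxia. Its groups did not overlap, where 4.77% of all genes tested were higher without overlap. In the limma fit with no filter its log2 difference was 0.73 (95% interval 0.05 to 1.41, unadjusted p = 0.0389). It did not pass by limma, DESeq2 or edgeR. The groups of COX16, COX20 and SCO2, also below the filter, overlapped.

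Complex I also held no gene past the test. Of 28 tested accessory subunits 19 were positive (median 0.09) and of 6 tested nuclear core subunits 1 was (median -0.07), and 0 of either were called by limma, DESeq2 or edgeR or had an unadjusted limma p under 0.05. NDUFA13, an accessory subunit also known as GRIM-19, stood at 71.0, 60.6 and 73.4 scaled reads in normoxia and 129, 93.3 and 84.6 in hypoxia, apart but not past the test (log2 difference 0.53, 95% interval -0.13 to 1.19). Its FPKM on the summed exon length was 1.25 to 2.66, close to the filter of 1. NDUFB4, another accessory subunit, also had higher hypoxia libraries without overlap and is named after its values were seen. That makes 2 of the 28, where 4.77% of all genes tested were higher without overlap. NDUFC2 had a log2 difference of -0.50 (-1.42 to 0.43), which was -0.066 without normoxia replicate 3 and -0.80 without normoxia replicate 1. The core subunits NDUFS3 and NDUFS7 had 0.32 and -0.17. That of NDUFS3 was 0.12 without normoxia replicate 3 and 0.14 without hypoxia replicate 1, and that of NDUFS7 was 0.066 without normoxia replicate 3. NDUFA7, an accessory subunit, and NDUFV2, a core subunit, were below the filter, with 2 to 17 and 1 to 6 reads per library.

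The genes that work beside LONP1, ISCU and CHCHD2 held none past the test either. In the mitochondrial proteases 10 of 14 were positive (median 0.09), in iron-sulfur cluster assembly 9 of 15 (median 0.04), and among the CX9C and cristae-organising genes 6 of 11 (median 0.03). In each of these lists 0 were called by limma, DESeq2 or edgeR and 0 had an unadjusted limma p under 0.05. PMPCA, a subunit of the mitochondrial processing peptidase, stood at 2079, 2017 and 1841 in normoxia and 1512, 1562 and 1558 in hypoxia. Its hypoxia libraries were all lower, with a log2 difference of -0.35 (95% interval -0.80 to 0.09), while SPG7 of the m-AAA protease had -0.28 with overlapping groups, and -0.10 without normoxia replicate 1. LYRM4, which binds the cysteine desulfurase next to ISCU, stood at 575, 513 and 398 and at 695, 601 and 658, a log2 difference of 0.40 (-0.19 to 0.98). BOLA1 had 0.38. Leaving out normoxia replicate 3 made these 0.25 for LYRM4 and 0.028 for BOLA1. CLPP, a matrix protease subunit, was higher without overlap and NFS1, the desulfurase, lower, both named after their values were seen. Of the 14 proteases 1 was higher and 1 lower without overlap, and of the 15 iron-sulfur genes likewise. Over all genes tested the shares were 4.77% higher and 2.72% lower. CHCHD10, the close relative of CHCHD2, had 0.27 (-0.35 to 0.88), which was 0.011 without normoxia replicate 3. CHCHD7 had -0.29, which was 0.14 without hypoxia replicate 2. The other hypoxia-inducible domain gene found, HIGD1B, had 1 to 20 reads per library.

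Of the HIF targets that act on mitochondria 5 were tested. All 5 were positive with groups that did not overlap (median 2.10), where 4.77% of all genes tested were higher without overlap. BNIP3 and MIR210HG rose by limma, and BNIP3L, MXI1 and FAM162A, named after their values were seen, did not pass. That is 2 called by limma, 5 by DESeq2 and 1 by edgeR, where the shares called higher over all genes were 0.0977%, 0.26% and 0.0674%. The list was chosen as known targets and with earlier results of these libraries known, so its direction is no independent evidence. PDK1, a kinase that inhibits pyruvate dehydrogenase, was below the filter. It had 32, 33 and 56 reads in normoxia and 198, 108 and 148 in hypoxia, with an adjusted p of 0.00352 by DESeq2, 0.404 by edgeR and 1.00 by limma with no filter.

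**Figure D5:**
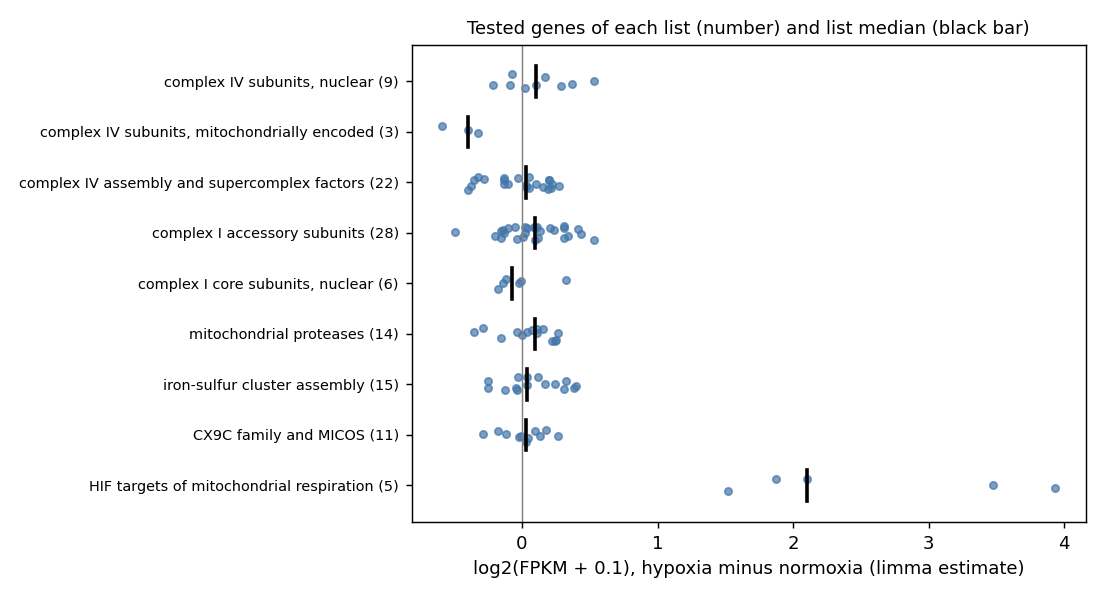
Log2 difference between hypoxia and normoxia (horizontal axis, limma estimate on log2(FPKM + 0.1)) for every tested gene of each list, with the number of genes in brackets and the list median as a black bar; the vertical scatter within a list is only for legibility. The 8 respiratory and mitochondrial lists have medians from -0.40 to 0.10, and the 5 tested HIF targets a median of 2.10.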

How the data were processed

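The deposited signal is, per the labels' tools and the values, read counts per human Ensembl gene divided by 1 size factor per library (0.944 to 1.06), although the table is named for FPKM; 100% of values were within 0.05 of a whole multiple of their library's smallest value, so reads were recovered. The submitters' processing notes list CASAVA, HISAT2 2.0.5, featureCounts 1.5.0-p3 and mm9, which cannot be the build of human identifiers; no source used here gives the build, annotation or strand setting. Values were put on an FPKM scale with GENCODE 29 exon lengths and the mean library total. Genes with FPKM of at least 1 in 3 libraries were tested with limma 3.58.1 (R 4.3.3) on log2(FPKM + 0.1), with trend and robust variance, two-sided, Benjamini-Hochberg over 10237 genes, threshold 0.05. Folds on this scale understate changes of weak genes. Values below the filter come from the fit with no filter. Recovered reads were also tested with edgeR 4.0.16 and DESeq2 1.42.0, and pairs by exact permutation. The fit was tested on simulated data, where it missed the smallest fold simulated, so a gene that did not pass is described by its interval and is not shown to be unchanged. Named genes were all members, BNIP3, MIR210HG, VEGFA and PDK1, and from each list up to 4 genes past the test or, where fewer than 2 passed, the 2 with the largest differences; NDUFA4L2 failed the filter, so only LONP1 got most-alike genes. Other genes whose reads overlap a member's, or that hold a seed match, were named after their values were seen. Members and lists were chosen with earlier results of these data known.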

Additional observations from a re-analysis of the deposited data

How the results depend on the processing

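No member passed the test in any of 18 alternatives, and COX4I1, LONP1, HIGD2A, ISCU and CHCHD2 kept their sign in all 18. The count of all genes past the test, 10, was 4 with no filter, 29 by edgeR with no filter, 58 by DESeq2, 27 with the GC correction, 33 with the GC correction and the replicate block, and 1 to 20 on leaving out 1 library. With the replicate block alone it was 19. Deviations of same-numbered libraries from their group means had r of -0.40, 0.24 and 0.22 across genes. Pairs with unlike numbers ran from -0.56 to 0.61. Deviations of 3 libraries from their own mean are bound to each other. These r values therefore cannot decide whether same-numbered libraries were paired. On leaving out 1 library the log2 difference ranged from -0.69 to 0.56 for HIGD1A, -0.27 to 0.30 for NDUFA4, -0.33 to 0.066 for NDUFS7 and -0.57 to 0.14 for CHCHD7, and the log2 ratio difference from -0.64 to 0.39 for NDUFA4L2 to NDUFA4 and from -1.04 to 0.24 for HIGD1A to HIGD2A. The block left the ratio differences at -0.19 and -0.52. No COX4I2 ratio was computed. The principal transcript length was added after seeing the data. NDUFA4L2, with 20 to 60 reads per library, is the member most limited by depth.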
